A study of Sus scrofa with 4 samples.

Results

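Of 8623 circular RNAs (circRNAs) listed in porcine subcutaneous preadipocytes, 4975 (57.7%) had a middle genomic span and are described here. The span is the distance between both ends of the back-splice junction on the genome. A circRNA entered when its span was at least 2000 and under 20000 bases, when both ends lay within a same-strand protein-coding or lncRNA gene (the host), and when that host was not ZEB1. In all, 5082 circRNAs had such a span, 100 of them had no such host, and 7 lay in ZEB1. The cells came from subcutaneous fat of 3 male Chinese Erhualian piglets that were 5 days old. Erhualian is an indigenous breed, and the labels name no transgene or targeted allele. D0 was the confluent, uninduced culture. D2 cells had received dexamethasone, 3-isobutyl-1-methylxanthine and insulin, D4 cells had then been kept with insulin alone, and D8 cells had then been kept in growth medium. RNA of the 3 piglets was pooled in equal amounts, so each stage is 1 library, no replicate exists, and stage and library cannot be told apart. The cultures are primary cells from minced tissue, so other cell types of fat could be present.

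A circRNA arises when a splice donor is joined to an acceptor upstream of it in the same transcript, which closes one or more exons into a ring without free ends. Rings resist exonucleases and are long-lived in cells, and one gene can give many rings through different pairs of ends. The genomic span counts the introns between the joined ends, so it is longer than the RNA itself when the ring holds several exons. Preadipocytes that receive the hormone cocktail leave the fibroblast-like state, express PPARG and CEBPA, and fill with lipid.

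The deposited value of a circRNA is SRPBM, junction reads scaled by all mapped reads. One junction read was worth 5.94 to 8.40 SRPBM in the 4 libraries, and the values divided by it gave whole reads, 37480 to 53207 per library over all circRNAs. The lowest value above 0 was 2 reads, so that a listed 0 can stand for 1 read. Adipocyte markers summed to 121, 484, 1715 and 2066 FPKM at D0, D2, D4 and D8. From D4 to D8, FABP4 rose from 853 to 1557 FPKM and CIDEC from 5.01 to 54.6, while PPARG, CEBPA, ADIPOQ, PLIN1 and LPL fell. All 6 markers of mesenchymal stroma reached 1 FPKM. Of 4 markers of smooth muscle and myofibroblasts, 3 were expressed, and their sum was 3438, 366, 232 and 2823 FPKM, high at D0 and D8 and led by ACTA2, the smooth muscle actin. The other expressed markers, DES and CNN1, were at 35.7 and 24.25 FPKM at D8, against 436 and 94.3 at D0. Of 3 endothelial markers 1 reached 1 FPKM, and of 3 immune, 3 epithelial and 1 listed skeletal muscle marker none did. With one library per stage, the intervals given below are exact 95% intervals for counting error and no test compares stages.

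The 4975 circRNAs came from 2560 hosts, 2526 protein-coding genes and 34 lncRNAs, the latter with 50 circRNAs. One circRNA was listed for 1444 hosts (56.4%), 172 hosts gave 5 or more, and 12 gave 10 or more. The median span was 7539 bases (quartiles 4256 and 12204), and a circRNA covered a median of 8.81% of its host. The first end lay at a median depth of 46.4% of the host, against 54.8% for circRNAs under 2000 bases and 32.9% for those of 20000 bases or more, whose hosts are longer (median 159494 bases, against 86899 and 63073). Only 7 circRNAs started within 100 bases of the start of the host, and 5 ended within 100 bases of its end. A back-splice end was shared with another listed circRNA by 2811 of them (56.5%), compared with 37.6% of the shorter and 78.4% of the longer circRNAs, and 605 shared both ends, each with a different ring. At the limits of the rule, RB1CC1 and FBXO11 gave circRNAs of 1999 bases that stayed out, whereas SETD5 and TNPO1 gave circRNAs of 2002 and 2005 bases that entered. At the other limit, CD109 (19982 bases) and KCTD3 (19997 bases) entered, and RPF2 (20021 bases) and MDM2 (20032 bases) stayed out. KCTD3 had 14, 8, 9 and 0 junction reads at the 4 stages, MDM2 had 9, 0, 11 and 0, and the other 6 were each listed in 1 library with 2 to 6 reads.

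Together these circRNAs held 53.4%, 54.0%, 53.7% and 53.0% of the junction reads of the D0, D2, D4 and D8 libraries, with Wilson intervals no wider than from 52.48% to 54.43%. Their share thus stayed within 1 percentage point over differentiation. Detection was sparse. Of the 4975, 2752 (55.3%) were listed in 1 library, 957 in 2, 603 in 3 and 663 (13.3%) in all 4. In all 4 libraries, 15.5% of the shorter and 10.6% of the longer circRNAs were listed. The median was 9 junction reads over the 4 libraries, 1199 circRNAs reached 20 reads and held 71.5% of the reads, and 390 reached 50. The 100 most abundant held 24.6%. Span within the range went with little difference in abundance, since circRNAs under 5000 bases, of 5000 to under 10000 bases and of 10000 bases or more had medians of 8, 9 and 8 reads, and 13.3%, 13.6% and 13.1% of them were listed in all 4 libraries.

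The circRNA with most reads lay in SUGCT, which encodes a mitochondrial glutarate-CoA transferase (chr18:54260019-54270584, Sscrofa11.1). It had 1470, 2049, 1787 and 1689 SRPBM at D0, D2, D4 and D8, from 229, 282, 301 and 201 reads. D2 lay above D0 beyond counting error, with a log2 ratio of 0.48 (0.22 to 0.74), and no stage differed from another by 2-fold. The ring of SLTM, a nuclear RNA-binding regulator of transcription, had 1681, 1395, 1864 and 1512 SRPBM, with D4 highest and D2 lowest, and it too stayed under 2-fold. PHF21A, a reader of unmethylated histone H3 in the LSD1 complex, gave a ring with 115, 142, 224 and 100 reads from a host of only 0.906 to 1.41 FPKM. Its SRPBM was highest at D4, where the host was at 1.32 FPKM.

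**Figure D1:**
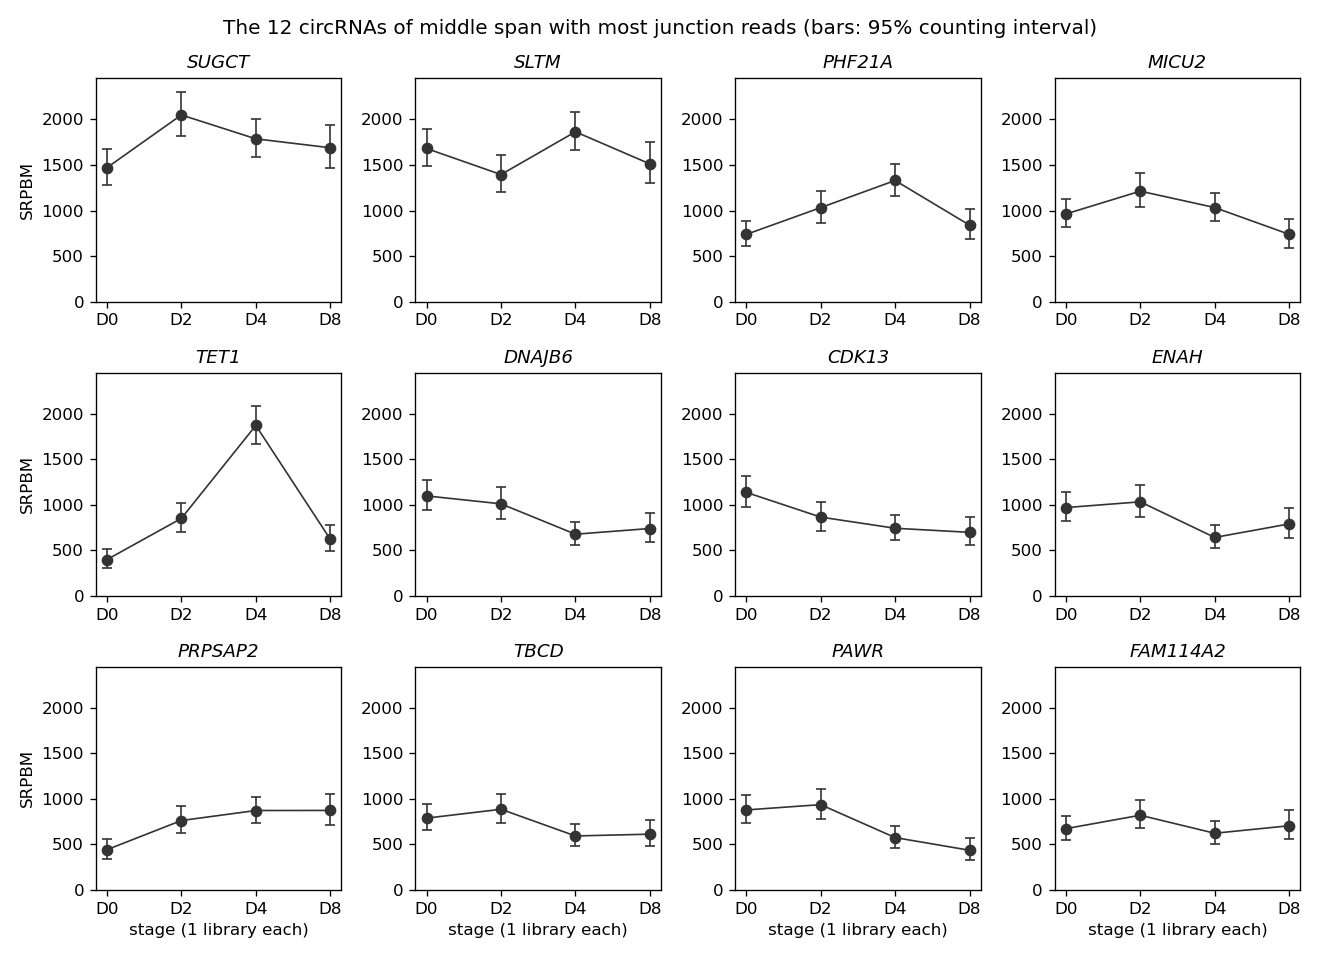
SRPBM of the 12 circRNAs of middle span with most junction reads, 1 per host, at D0, D2, D4 and D8 (1 library each); bars are 95% counting intervals. TET1 rises from 398 at D0 to 1870 at D4 and is at 622 at D8, while the SUGCT and SLTM rings lie between 1395 and 2049 at all stages.

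TET1, the dioxygenase that oxidises 5-methylcytosine, gave the most variable of these 12 rings (chr14:71765050-71773116). It had 62, 117, 315 and 74 reads, that is 398, 850, 1870 and 622 SRPBM. The D4 interval (1669 to 2088 SRPBM) stood above those of the other stages, with a log2 ratio of 2.23 (1.84 to 2.65) against D0 and a fall by 1.59 from D4 to D8. The host was at 1.55, 4.92, 6.94 and 4.80 FPKM, also highest at D4. MICU2, a regulator of the mitochondrial calcium uniporter, gave 150, 167, 174 and 88 reads, and CDK13, a kinase of the RNA polymerase II tail, gave 177, 119, 125 and 83. ENAH, an actin polymerization factor, had 151, 142, 108 and 94 reads while its mRNA went from 69.2 to 25.6 FPKM between D0 and D8. None of the rings of MICU2, CDK13 and ENAH reached a 2-fold difference in any comparison. PAWR, a pro-apoptotic protein, was the only other one of the 12 to do so. Its ring had 137, 129, 97 and 52 reads, with a log2 ratio of −1.01 (−1.50 to −0.54) at D8 vs D0. The rings of DNAJB6, a co-chaperone, of PRPSAP2, a partner of phosphoribosyl pyrophosphate synthetase, of TBCD, a tubulin folding cofactor, and of FAM114A2 held 407 to 512 reads each and were not called in any comparison.

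A circRNA was called higher or lower when the SRPBM ratio of 2 libraries was at least 2 and its counting interval left out 1, among those with at least 20 reads over the 4 libraries. A listed 0 was set to 3 reads, so that such a ratio is set by this floor and is not a measured value. The counting interval instead took a listed 0 as exactly 0 reads, although it can stand for 1 read. Such intervals are therefore too narrow. At D2 vs D0, 226 of 1199 circRNAs of middle span were higher and 229 lower (37.95%, against 39.1% of all circRNAs tested, 19.6% higher and 19.5% lower). At D4 vs D2, 181 were higher and 253 lower (36.2%, all circRNAs 36.1%, 15.6% higher and 20.5% lower). At D8 vs D4, 195 were higher and 170 lower (30.4%, all circRNAs 30.2%, 16.1% higher and 14.1% lower). At D4 vs D0, 229 were higher and 275 lower (42.0%, all circRNAs 43%, 19.7% higher and 23.3% lower), and at D8 vs D0, 189 were higher and 245 lower (36.2%, all circRNAs 37.6%, 16.9% higher and 20.7% lower). These shares lie near the background, so they are no result about circRNAs of this span. The comparisons share libraries, the 3 with D0 in particular, and are not independent of each other.

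Most calls rested on a 0. A library at 0 was part of 255, 249, 184, 257 and 247 calls in the order above. Among circRNAs above 0 in both libraries, 97 were higher and 103 lower of 867 at D2 vs D0 (23.07%, all circRNAs 23.1%), 62 and 123 of 883 at D4 vs D2 (20.95%, all 21.4%), 104 and 77 of 879 at D8 vs D4 (20.59%, all 19.5%), 91 and 156 of 890 at D4 vs D0 (27.75%, all 28.3%), and 72 and 115 of 848 at D8 vs D0 (22.05%, all 22.5%). The balance of rises and falls depended on the scaling. Scaling by total junction reads instead of mapped reads adds 0.17 to every log2 ratio at D4 vs D0, and 252 were then higher and 240 lower. The same change gave 257 higher and 200 lower at D2 vs D0 and 177 higher and 182 lower at D8 vs D4. The shift is smaller than the ratio a call needs, so it moves counts and cannot turn a call. In the bulk RNA used here, fewer cells of a type and less RNA per cell cannot be told apart.

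**Figure D2:**
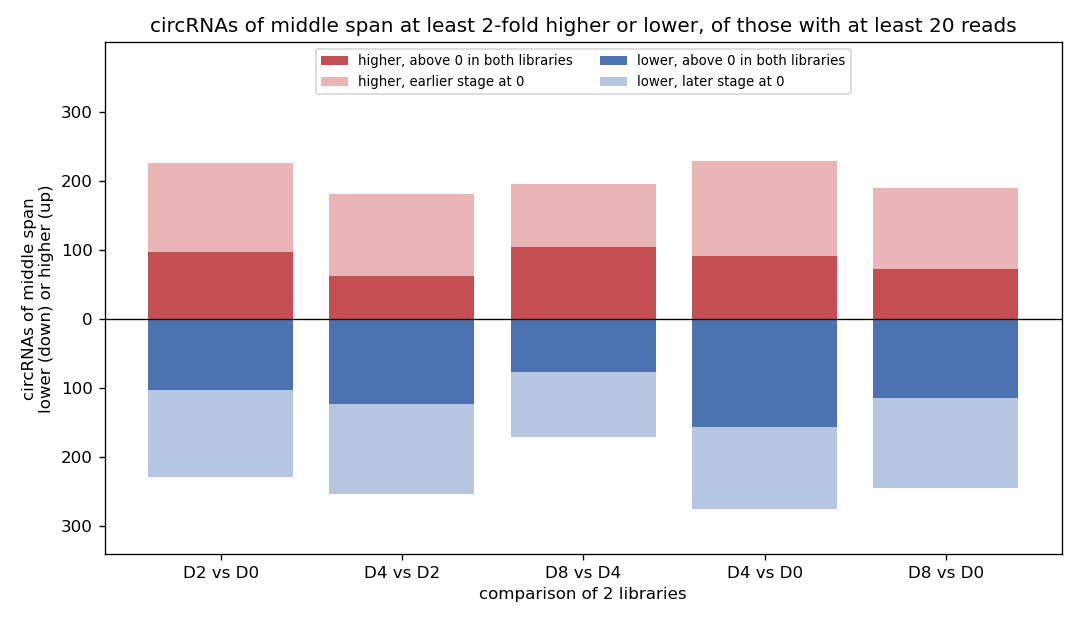
Number of circRNAs of middle span at least 2-fold higher (up) or lower (down) in each comparison of 2 libraries; dark parts are calls above 0 in both libraries and pale parts are calls with a library at 0. Dark parts run from 62 (higher, D4 vs D2) to 156 (lower, D4 vs D0), and pale parts make up 255 of the 455 calls at D2 vs D0.

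Over all 5 comparisons, 928 of the 1199 (77.4%, all circRNAs 77.5%) were called at least once and 271 never. Of the 390 with at least 50 reads, 110 (28.2%) were never called, among them those of PTK2, the focal adhesion kinase (49, 54, 57 and 46 reads), and UBE3A, a ubiquitin ligase (66, 82, 74 and 70 reads). The highest SRPBM was at D0 for 122 of the 390, at D2 for 111, at D4 for 82 and at D8 for 75. Against D0, 64 of the 1199 (5.34%, all circRNAs 6.64%) were higher at all 3 later stages and 60 (5.004%, all circRNAs 5.37%) were lower at all 3. These comparisons rest on the same D0 library, which was listed at 0 for 53 of the 64, and 39 of the 60 had a 0 at some stage, so nothing is read from these counts about circRNAs of this span.

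The largest changes below are those among called circRNAs with at least 50 reads that were above 0 in both libraries compared. At D2, after the hormone cocktail, the ring of ACVR2A, a receptor for activins, showed one of the largest rises (chr15:4207163-4211249). It had 10, 58, 33 and 30 reads at D0, D2, D4 and D8. D0 was lowest, the 3 later stages were above it, and the log2 ratio at D2 vs D0 was 2.72 (1.74 to 3.85), with the host at 7.20 FPKM at D0 and 17.7 at D2. RAB23, a GTPase that restrains hedgehog signalling, gave a ring with 14, 66, 10 and 15 reads (chr7:28649149-28653086). D2 alone was high, the log2 ratio at D2 vs D0 was 2.42 (1.57 to 3.36) and that at D4 vs D2 was −3.01 (−4.14 to −2.05), while the host went from 24.0 to 9.89 FPKM between D0 and D2. A longer RAB23 ring with the same end had 0, 13, 33 and 11 reads and was highest at D4. PHTF1 (3 reads at D0 and 25 at D2) had the largest log2 ratio, 3.24 (1.53 to 5.61), and DENND4A (6 and 30 reads) came after ACVR2A with 2.50 (1.21 to 4.06). The shorter RAB23 ring, and those of FBXW4, LPCAT2, IFT88 and EXOG described with later stages, followed with 2.42 to 2.27.

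Falls at D2 were led by ARHGEF7, an exchange factor for Rac and Cdc42. Its ring at chr11:77484689-77489240 had 51, 6, 14 and 17 reads. D0 was above every later stage, with log2 ratios of −2.91 (−4.42 to −1.69) at D2, −1.98 (−2.95 to −1.10) at D4 and −1.20 (−2.08 to −0.38) at D8, and the host stayed between 3.01 and 5.14 FPKM. CUL3, the scaffold of a family of ubiquitin ligases, gave 33, 5, 20 and 6 reads, and XPOT, the export receptor for tRNA, gave 16, 2, 27 and 8. In both, D2 lay below D0 and D4, by log2 ratios of −2.54 and −2.82 to D0, and the XPOT ratio has an interval as wide as −5.99 to −0.73.

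From D2 to D4, the largest rises were those of XPOT (log2 3.46, 1.47 to 6.58), of DTNB, a dystrophin partner with 7, 4, 37 and 11 reads, and of DOCK1, an activator of Rac with 11, 4, 35 and 8 reads. In DTNB and DOCK1, D4 was the single high stage, and both were called lower again at D8. The largest falls were those of SPATA6 (23, 34, 3 and 10 reads), of C9H1orf27 (23, 48, 5 and 0 reads) and of the shorter RAB23 ring. None of these 6 hosts differed by 2-fold between D2 and D4. The hosts SPATA6 and DTNB were under 1 FPKM at all stages, below the limit set for host ratios.

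From D4 to D8, the ring of LPCAT2, an acyltransferase of phosphatidylcholine and platelet-activating factor synthesis, showed the largest fall (chr6:30026332-30032862). It had 17, 76, 146 and 10 reads, that is 109, 552, 867 and 84.0 SRPBM. D2 and D4 were high and D0 and D8 low, with log2 ratios of 2.34 (1.57 to 3.19) at D2 vs D0, 2.99 (2.26 to 3.81) at D4 vs D0 and −3.37 (−4.46 to −2.45) at D8 vs D4. Its host went through 5.40, 23.7, 16.1 and 3.47 FPKM, also high at D2 and D4. Large falls were also seen for IFT88, a carrier of ciliary transport (8, 35, 25 and 2 reads), and PHC3, a polycomb protein (17, 18, 23 and 2 reads). Rises at this step brought back rings that were low at D4. AEBP2, a partner of the polycomb complex PRC2, had 32, 21, 4 and 29 reads, TRAPPC10 had 24, 26, 5 and 23, and CMAS, which activates sialic acid, had 44, 17, 3 and 13. In these 3 rings D4 was the lowest stage, and the D8 level of AEBP2 and TRAPPC10 was within 2-fold of that at D0.

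Between D0 and D4, EXOG, a mitochondrial nuclease, gave the largest rise with 4, 17, 45 and 10 reads (log2 3.38, 1.92 to 5.32), ahead of LPCAT2 and of FBXW4, an F-box protein with 6, 28, 41 and 25 reads. The largest falls were those of CMAS (log2 −3.99, −6.32 to −2.35), DCUN1D1, a factor of cullin neddylation (32, 19, 3 and 0 reads), and DIMT1, a methyltransferase of ribosomal RNA (30, 16, 3 and 8 reads). Each of these falls rested on 3 reads at D4, and the intervals are wide.

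Between D0 and D8, the ring of ME1, the cytosolic malic enzyme that supplies NADPH for fatty acid synthesis, rose most (chr1:82875117-82891579). It had 128, 0, 582 and 1050 SRPBM at D0, D2, D4 and D8, from 20, 0, 98 and 125 reads. D4 and D8 were above D0, with log2 ratios of 2.18 (1.48 to 2.95) and 3.03 (2.34 to 3.79), and the host went through 4.23, 7.30, 26.0 and 33.4 FPKM. At D2 the ring was listed at 0 although its host was higher than at D0. ROR2, a receptor for WNT5A, gave 13, 44, 72 and 66 reads (chr14:2843131-2861536), with log2 ratios to D0 of 1.94, 2.36 and, at the last stage, 2.73 (1.86 to 3.72), and a host within 4.53 to 6.97 FPKM. FBXW4 came next (log2 2.45). Falls were led by AASS, the first enzyme of lysine degradation (32, 12, 10 and 3 reads), CDK14, a cyclin-dependent kinase (29, 10, 10 and 3 reads), and PHC3. The AASS and CDK14 rings were called lower at every stage after D0, and their hosts were lower than at D0 at each of these stages too.

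Members of gene groups were counted against all circRNAs of the same comparison, of which 19.7% were higher and 23.3% lower at D4 vs D0, and 16.9% higher and 20.7% lower at D8 vs D0. The median log2 ratio of all circRNAs of middle span was −0.17 at D4 vs D0 and −0.20 at D8 vs D0. Among hosts of adipogenic transcription and hormone signalling, 9 circRNAs reached 20 reads, 5 were higher and 0 lower at D4 vs D0 (median 1.11), and 4 of the 5 had D0 at 0. The ring of NFIX, a nuclear factor I protein, was the one above 0 in both libraries, with 12, 33, 29 and 16 reads and a log2 ratio of 1.16 (0.15 to 2.27). At D8 vs D0, 4 were higher and 0 lower, all 4 with D0 at 0, and PRKAR1A, a regulatory subunit of protein kinase A with 22, 24, 27 and 9 reads, was not called.

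Lipid metabolism had 8 circRNAs with enough reads. At D8 vs D0, 2 were higher and 1 lower, 2 of these calls with a 0, and 1 was called at D4 vs D0. The latter came from ACACA, acetyl-CoA carboxylase (chr12:38796303-38800438), with 28, 38, 67 and 83 reads or 180, 276, 398 and 697 SRPBM. Its level was highest at D8, with log2 ratios of 1.15 (0.49 to 1.84) at D4 vs D0 and 1.96 (1.32 to 2.63) at D8 vs D0, while the host was highest at D4 with 7.15, 18.7, 51.8 and 24.1 FPKM. LPGAT1, a lysophospholipid acyltransferase, had 24, 6, 13 and 22 reads, and OSBPL1A, an oxysterol-binding protein, had 12, 13, 7 and 18. D8 was above D4 in both by 2-fold or more, in a step in which both hosts were lower at D8.

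Hosts of the extracellular matrix gave 19 tested circRNAs, of which 10 were higher and 2 lower at D8 vs D0 (median 1.19). A 0 was part of 7 of these 12 calls, and 4 higher and 1 lower were left above 0 in both libraries. VCAN, the proteoglycan versican, had 23, 26, 45 and 45 reads and P4HA1, a subunit of collagen prolyl hydroxylase, had 13, 24, 22 and 26. Both were called higher at D8 vs D0, by log2 ratios of 1.36 and 1.39. COL5A1, a chain of the fibrillar collagen V, went the other way with 85, 36, 41 and 26 reads, lower than D0 at all later stages by log2 ratios of −1.06, −1.16 and −1.32, with its host at 61.2, 33.5, 21.3 and 31.6 FPKM. The summed markers of mesenchymal stroma were 1097, 2144, 2847 and 2219 FPKM at the same stages. This sum was led by COL3A1, at 491 FPKM at D0 and 1624 at D8. DCN was also higher at D8 than at D0, whereas PDGFRA, PDGFRB, THY1 and COL1A1 were lower. The part of these markers in the circRNA values was not tested. The main ring of COL12A1, a fibril-associated collagen, had 27, 32, 26 and 13 reads and was not called.

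Of 38 tested circRNAs from hosts of the actin cytoskeleton and adhesion, 3 were higher and 6 lower at D4 vs D0. A library at 0 was part of 7 of these calls, and 1 higher and 1 lower were left above 0 in both. At D8 vs D0, 6 were higher and 14 lower, 11 of these 20 calls with a 0. The sum of the smooth muscle markers was high at D0 and D8 (3438 and 2823 FPKM) and low between. At D8 this held for ACTA2 (2762 FPKM, 2907 at D0), whereas DES fell from 436 at D0 to 35.7 and CNN1 from 94.3 to 24.25. The part of these markers was not tested. ARHGAP12, a GTPase-activating protein, was higher at D8 than at D0 and D4 with 20, 27, 21 and 36 reads, and WASF3, which drives actin branching, was not called with 42, 19, 38 and 28. TGF-beta, WNT and Hippo signalling had 15 tested circRNAs, 4 higher and 5 lower at D4 vs D0, and 4 higher and 3 lower at D8 vs D0. Calls with a library at 0 numbered 6 and 4 in these comparisons. Besides ROR2 and ACVR2A, the GSK3B ring, from the kinase of beta-catenin turnover, had 13, 15, 22 and 2 reads and was lower at D8 than at D0 and D4.

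Histone methylation and demethylation had 19 tested circRNAs, with 5 higher and 7 lower at D4 vs D0 and 5 higher and 3 lower at D8 vs D0. Calls with a library at 0 numbered 3 and 5 in these comparisons. KDM4C, a demethylase of histone H3 lysine 9, had 22, 27, 84 and 61 reads (chr1:215371012-215389275). D4 and D8 were high and D0 and D2 low, with log2 ratios to D0 of 1.82 (1.13 to 2.57) and 1.86 (1.14 to 2.63), while the host lay between 6.06 and 8.83 FPKM. KDM5B, a demethylase of histone H3 lysine 4, moved in the other direction with 56, 36, 20 and 26 reads and a log2 ratio of −1.60 (−2.41 to −0.84) at D4 vs D0. Chromatin remodelling, acetylation and DNA methylation had 23 tested, 8 higher and 4 lower at D4 vs D0 and 2 and 3 at D8 vs D0. Here 3 calls had a library at 0 in each comparison. SMARCA5, the ATPase of ISWI remodellers, gave a ring with 71, 31, 35 and 41 reads, higher at D0 than at D2 and D4 by over 2-fold, with the host between 36.4 and 45.5 FPKM. A less abundant ring of this host went the other way at D4 vs D0, with 9, 0, 24 and 5 reads (log2 1.30, 0.15 to 2.59). The ATRX ring (24, 20, 42 and 23 reads) was not called.

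At D8 vs D0 the ubiquitin system had 3 higher and 8 lower of 43 tested circRNAs, 5 of these calls with a 0. At D4 vs D0 it had 16 higher and 6 lower, with 11 and 5 left above 0 in both libraries. UBR3, a ubiquitin ligase, was among the higher with 19, 32, 42 and 24 reads (log2 1.03, 0.22 to 1.90), whereas the most abundant rings of UBE3A, RNF121 and UBAP2 were not called. RNA binding and splicing had 37 tested, 8 higher and 7 lower at D4 vs D0 and 8 and 5 at D8 vs D0, with a 0 in 8 and 7 of these calls. The rings of RBM6 (102, 58, 97 and 45 reads) and PAN3, a subunit of a poly(A) nuclease (81, 48, 76 and 54), were not called in any comparison. Vesicle traffic had 46 tested, 5 higher and 11 lower at both D4 vs D0 and D8 vs D0, with a 0 in 9 and 7 of these calls. The most abundant rings of PICALM, a clathrin assembly protein (49, 52, 88 and 66 reads), and WDR7 (59, 52, 38 and 25) were not called, and NBAS, a factor of retrograde transport, was low at D2 alone with 55, 24, 64 and 66. TBC1D22A was lower at D8 than at D0 with 53, 56, 49 and 20. Hosts known for abundant circRNAs in mammals had 41 tested, 9 higher and 11 lower at D4 vs D0 and 5 and 10 at D8 vs D0. Calls with a library at 0 numbered 6 and 10. The ring of ZNF292, one of these hosts, held 70, 81, 96 and 55 reads and was not called.

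The counts above compare D4 and D8 with D0. Of all circRNAs tested, 19.6% were higher and 19.5% lower at D2 vs D0. These shares were 15.6% and 20.5% at D4 vs D2, and 16.1% and 14.1% at D8 vs D4. The groups are small and many of their calls have a library at 0, so no trend is read from the counts that follow. In the comparisons of neighbouring stages, the adipogenic group had 3 higher and 0 lower at D2 vs D0, no call at D4 vs D2, and 2 higher and 0 lower at D8 vs D4. Lipid metabolism had 0 higher and 2 lower, 2 and 0, and 3 and 1 in that order. A 0 was part of 1, 2 and 1 of these calls, and the median log2 ratios were 0.18, 0.33 and 0.86. The extracellular matrix had 6 higher and 3 lower, 4 and 1, and 3 and 3. Actin and adhesion had 6 higher and 8 lower, then 5 and 13, then 4 and 3. Between D2 and D4 a 0 was part of 10 calls, and 7 of the 13 falls were above 0 in both libraries. TGF-beta, WNT and Hippo signalling had 4 higher and 7 lower of 15 at the first step, 2 and 4 at the next and 6 and 2 at the last. A 0 was part of 5, 4 and 3 of these calls. Histone methylation had 7 higher and 4 lower, 2 and 4, and 0 and 1. Chromatin remodelling had 8 higher and 3 lower, 4 and 2, and 1 and 8, and 3 of the last 8 were above 0 in both libraries. The ring of TET1 was one of those 3. The ubiquitin system had 9 higher and 6 lower, 11 and 7, and 4 and 7, and RNA binding and splicing had 9 and 6, 6 and 11, and 9 and 5. Vesicle traffic had 10 higher and 10 lower, 6 and 14 (median log2 −0.74, against −0.20 for all circRNAs of middle span), and 8 and 6. Hosts known for abundant circRNAs had 6 higher and 9 lower, 7 and 6, and 4 and 5.

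In TET1, rings of one host moved in opposite directions. The gene gave another ring that shared the start of the first but ended earlier (chr14:71765050-71767362). It had 21, 57, 28 and 41 reads, highest at D2, where the longer ring was highest at D4. From D2 to D4 the longer ring rose by 1.14 (0.83 to 1.46) and the shorter one fell by 1.32 on the log2 scale (−2.02 to −0.64), and from D4 to D8 the order turned, with −1.59 (−1.97 to −1.22) for the longer and 1.05 (0.32 to 1.80) for the shorter. In ARHGEF7, the ring that was low at D2 shared its end with a longer one (chr11:77475172-77489240) that had 55, 63, 80 and 48 reads and was not called in any comparison. PICALM showed the same arrangement. Its most abundant ring (chr9:19897760-19913189) was not called, while a ring inside it with the same end (chr9:19905675-19913189) had 59, 19, 13 and 21 reads and was called lower than D0 at every later stage, with a log2 ratio of −2.29 (−3.29 to −1.41) at D4. EHMT1, a methyltransferase of histone H3 lysine 9 that lies on an unplaced scaffold, gave separate rings of 5946 and 3394 bases. The first had 27, 35, 46 and 46 reads and was higher at D8 than at D0 (log2 1.16, 0.44 to 1.90), and the other had 56, 24, 22 and 24 and was lower at D2 and D4 than at D0. At D4 vs D0, 55 hosts had more than one called ring, and in 26 of them the calls went both ways. Over all circRNAs of middle span the calls of this comparison were 229 higher and 275 lower, so opposite calls within a host are not read as particular to these hosts. Above 0 in both libraries this held for 7 of 17 hosts. At D2 vs D0 the calls went both ways in 21 of 48 hosts (5 of 14 above 0 in both libraries) and at D4 vs D2 in 18 of 36 (5 of 12). It was so in 13 of 30 (4 of 12) from D4 to D8 and in 18 of 47 (3 of 12) from D0 to D8.

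SMURF2, a ubiquitin ligase of TGF-beta signalling, was the host with most circRNAs (18, on chromosome 12). Of these, 17 shared an end with another listed circRNA, 4 reached 20 reads, and 2 were listed at all stages. The number listed was 13, 9, 6 and 3 from D0 to D8, and 7 were listed at D0 alone. Summed over the 18, the reads were 147, 57, 34 and 33. D0 stood above the later stages, with log2 ratios for SMURF2 of −1.19 (−1.66 to −0.74) at D2, −2.22 (−2.81 to −1.68) at D4 and −1.77 (−2.36 to −1.21) at D8, and its host was at 20.5, 7.06, 7.89 and 11.6 FPKM. The most abundant of the 18 had 23, 7, 7 and 17 reads.

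**Figure D3:**
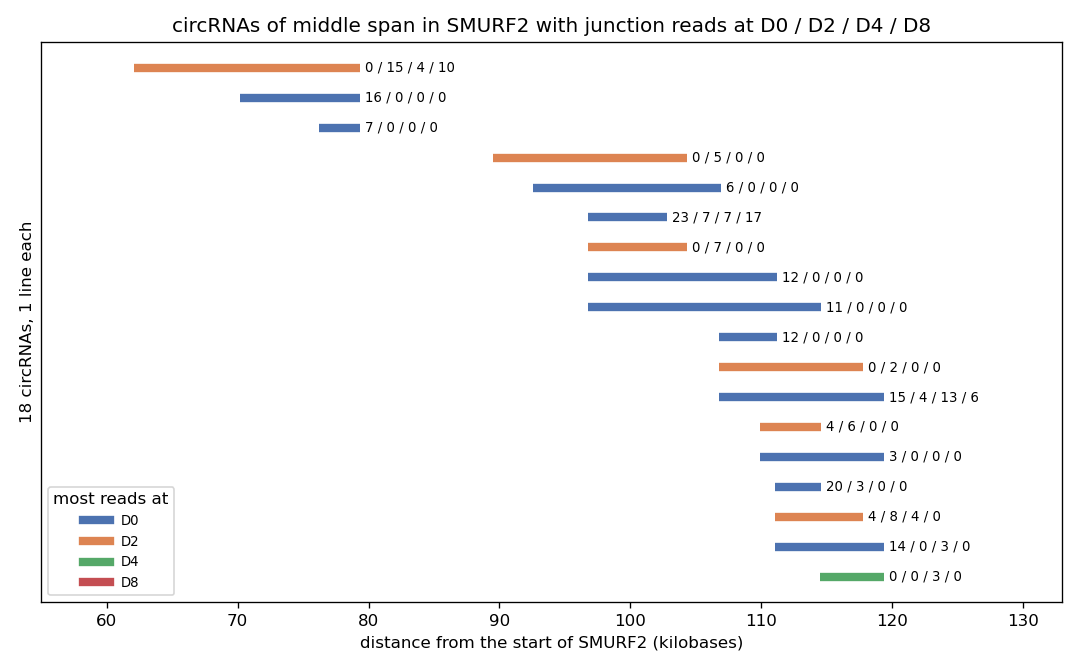
The 18 circRNAs of middle span in SMURF2 as lines from first to last end, by distance from the start of the gene in kilobases; the colour marks the stage with most reads and the text gives reads at D0, D2, D4 and D8. The colour for D0 is the most frequent, and 7 of the lines have reads at D0 alone.

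The next hosts by number were COL12A1 (13), CCT3, REV3L and NPEPPS (12 each). COL12A1 summed to 59, 83, 44 and 52 reads, with D2 above D4 by over 2-fold. NPEPPS, a cytosolic aminopeptidase, summed to 32, 19, 15 and 44, and 6 of its 12 rings were listed at D8 alone. CCT3, a subunit of the cytosolic chaperonin, summed to 262, 151, 274 and 94. A pair of its rings with a common start held most of these reads. One had 101, 77, 96 and 0 and the other 91, 45, 108 and 38. D8 had the fewest reads in both, and none in one of them. REV3L, the catalytic subunit of DNA polymerase zeta, summed to 113, 153, 58 and 116, low at D4, where its host was highest (9.37, 30.1, 36.2 and 15.6 FPKM). Over hosts with 5 or more circRNAs, the most abundant one held a median of 42.7% of the reads of its host.

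Summing the reads of all circRNAs of a host left the number of differences close to that for single rings. Of 1108 hosts with at least 20 reads, 429 (38.7%) were called from D0 to D2, 387 (34.9%) from D2 to D4, 339 (30.6%) from D4 to D8, 460 (41.5%) from D0 to D4 and 403 (36.4%) from D0 to D8, and 147 to 203 of these rested on a library at 0.

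Among circRNAs with at least 20 reads, the levels of rings and of the mRNAs of their hosts showed no linear relation. Within each library, log2 SRPBM and log2 host FPKM had a Pearson r of at most 0.0145 in size across 927 to 1004 circRNAs. In this description rings of a host share its FPKM. Each library listed 2094 to 2417 circRNAs of middle span, so those with few reads are left out. Such a limit narrows the range of levels and can lower r. The changes were loosely related. Above 0 in both libraries, circRNAs had the direction of the host in 54.8% of 817 at D2 vs D0 (Wilson 51.4% to 58.2%). It was 52.1% of 827 at D4 vs D2 (48.7% to 55.5%) and 47.5% of 826 at D8 vs D4 (44.1% to 50.9%). It was 54.96% of 837 at D4 vs D0 (51.6% to 58.3%) and 57.6% of 798 at D8 vs D0 (54.2% to 61.0%). Pearson r of the log2 ratios was 0.19, 0.04, 0.08, 0.20 and 0.23 in the same order. The Wilson intervals take rings of a host as independent. Shared direction also depends on the balance of rises and falls. At D8 vs D0, 97 of 111 rings called lower went with the host, but 28 of 68 called higher, all above 0 in both libraries.

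**Figure D4:**
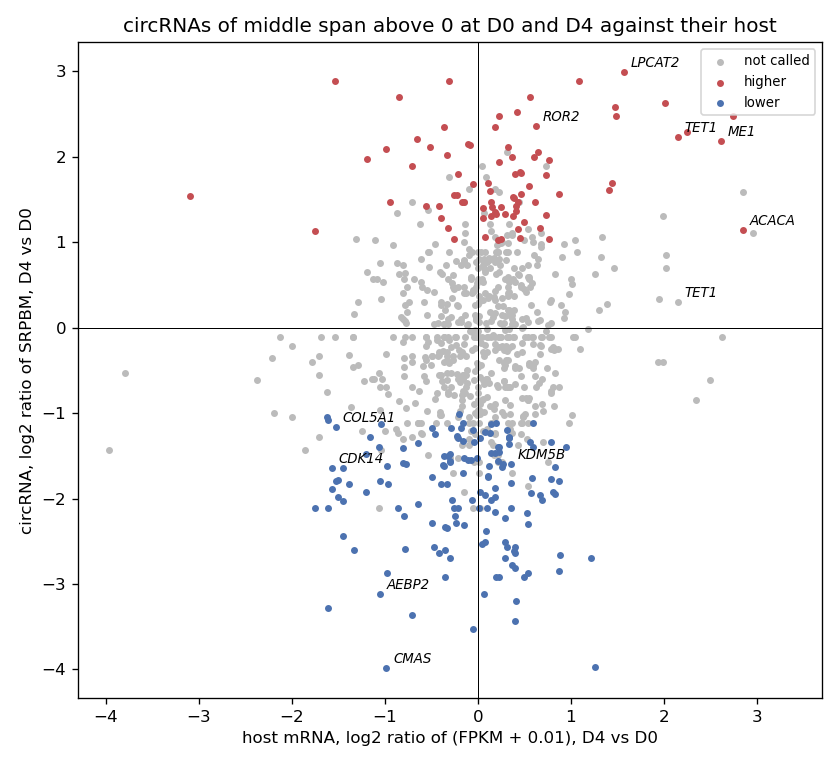
Log2 ratio of SRPBM at D4 vs D0 for the 837 circRNAs of middle span above 0 in both libraries (vertical) against the log2 ratio of host FPKM (horizontal); red and blue points were called higher and lower. The cloud is broad with r = 0.20, and LPCAT2, ME1, ACACA and the longer ring of TET1 lie at the upper right, with ring and host both higher at D4.

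The circRNAs were then split by the change of the host. At D4 vs D0, 65 circRNAs lay in 53 hosts whose FPKM was at least 2-fold higher, and 27 of them were higher and 10 lower (median log2 0.89). In 68 hosts at least 2-fold lower, 9 of 92 circRNAs were higher and 40 lower (median −1.05). In hosts that stayed under 2-fold, 173 of 937 were higher and 210 lower (median −0.18), so most calls fell there. Above 0 in both libraries the counts were 12 and 2 of 40, 4 and 23 of 69, and 67 and 123 of 728. Of all protein-coding genes expressed at 1 FPKM in at least 3 libraries, 10.4% were 2-fold higher and 8.81% lower in this comparison. The same order was seen at D2 vs D0, with 12 higher and 1 lower of 35 in higher hosts and 12 and 31 of 100 in lower hosts, or 8 and 0 of 27 and 6 and 23 of 85 above 0 in both libraries (protein-coding genes 6.67% higher and 10.1% lower), and at D8 vs D0, with 6 and 0 of 9 and 2 and 16 of 31, or 3 and 0 of 6 and 0 and 9 of 20 (3.6% and 3.68%). From D2 to D4, 6 of 18 circRNAs in higher hosts were higher and 4 lower, and 1 circRNA lay in a lower host (protein-coding genes 4.24% and 0.838%). Of the 10 in higher hosts that were above 0 in both libraries, 0 were higher and 2 lower. Their median log2 ratio was 0.08, against −0.23 in hosts under 2-fold, and 2 calls are too few to read a direction. At D8 vs D4, 6 of 25 circRNAs in higher hosts were higher and 2 lower (6 and 1 of 21 above 0 in both libraries), while 11 of 73 circRNAs in lower hosts were higher and 18 lower, and above 0 in both libraries 6 and 5 of 54 (4.43% and 10.1%).

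A pattern of isolated zeros ran through the abundant circRNAs and touches the largest ratios. Of 390 circRNAs with at least 50 reads, 349 were above 0 in all libraries, 38 were at 0 in 1 library, 2 in 2 and 1 in 3. In 31 of the 38, each of the other libraries held 10 or more reads, and in 9 it held 20 or more. At the mean SRPBM of the other 3 libraries, the library at 0 would have held 13.8 to 109 reads, with a median of 20.7. The library at 0 was D0 for 12, D2 for 12, D4 for 5 and D8 for 9 of them. Over the 1560 values of these 390 circRNAs, 45 were 0 and 25 were 2 to 4 reads. No other listed circRNA lay within 200 bases of both ends of any of the 38. For some of them, circRNAs sharing an end held reads in the library at 0, as with ANTXR2 (60 reads at D4) and APBB2 (130 at D0). For others, such as ME1 at D2 and FDFT1 at D0, such circRNAs held 0 reads there.

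ANTXR2, a receptor for anthrax toxin and collagen VI, gave the largest such gap, with 159, 79, 0 and 42 reads. Against the floor of 3 reads it was 57.3-fold lower at D4 than at D0. The upper log2 limit was −5.525 by the counting interval, which takes the 0 as exact. Its host was at 21.4, 19.7, 14.3 and 12.9 FPKM. The REV3L ring at chr1:77263699-77270404 had 61, 97, 0 and 67 reads, so the low sum of this host at D4 rests on it. Others were at 0 at D2, such as the ring of EDC3, an enhancer of mRNA decapping, with 109, 0, 49 and 50 reads. Against the floor this ring was 32.1-fold lower than at D0, with an upper log2 limit of −4.68. EIF4A3, a core of the exon junction complex, was at 0 at D4 with 48, 50, 0 and 38 reads, and RCBTB2 at D8 with 70, 29, 71 and 0. In each of these 5 the remaining libraries held at least 29 reads, and no host was at 0.

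**Figure D5:**
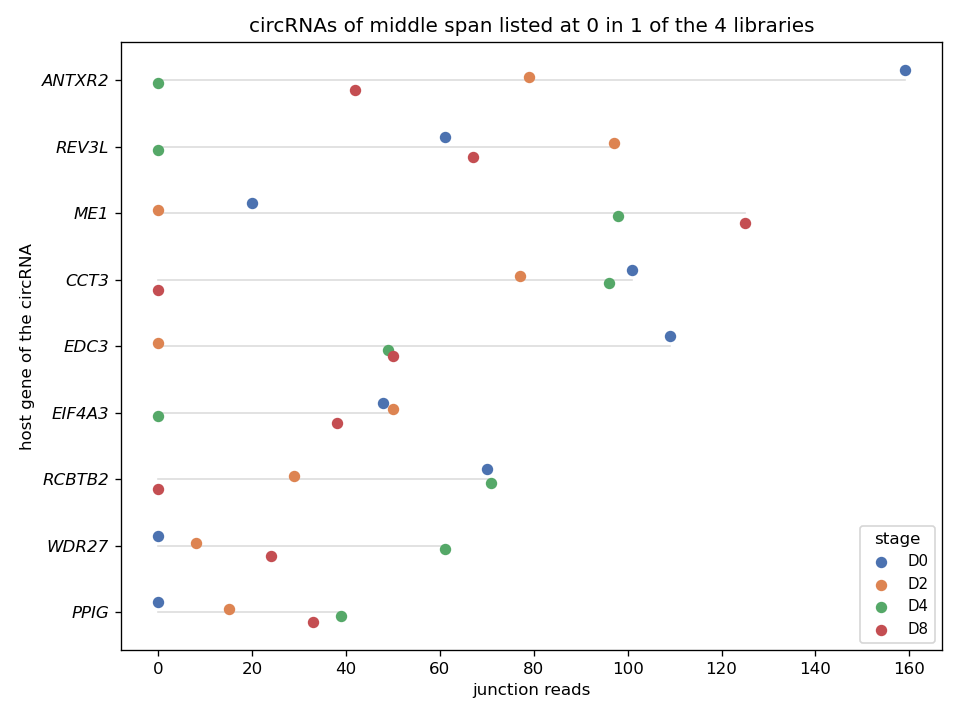
Junction reads at D0, D2, D4 and D8 of the 9 circRNAs of middle span with the most reads expected in a library in which they were listed at 0, named by host. Each line has 1 point at 0, and the other points reach 159 (ANTXR2 at D0).

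Several of the largest rises from D0 were of the same form. The rings of HNRNPC, a nuclear RNA-binding protein (0, 35, 20 and 16 reads), FDFT1, squalene synthase (0, 34, 29 and 14), PPIG, a splicing-related cyclophilin (0, 15, 39 and 33), and WDR27 (0, 8, 61 and 24) were at 0 at D0 alone. Against the floor of 3 reads they were 13.2-fold (HNRNPC) and 12.8-fold (FDFT1) higher at D2, and 14.4-fold (PPIG) and 10.5-fold (WDR27) higher at D8. The lower limits of the log2 counting intervals were 3.35, 3.30, 3.47 and 2.98 in that order. The hosts of these rings differed from D0 by less than 2-fold at these stages. The WDR27 host, at 0.635, 1.07, 1.40 and 0.835 FPKM, was under the limit set for host ratios. At D4, where the WDR27 ring had most reads, its host was over 2-fold higher than at D0. Falls to 0 at D2 were seen for ARHGAP29, a GTPase-activating protein (45, 0, 5 and 10 reads), and VDAC1, the channel of the outer mitochondrial membrane (34, 0, 22 and 11), and a fall to 0 at D8 for ASXL2, a polycomb-associated protein (51, 29, 18 and 0). Among the 390, 3 were listed in fewer than 3 libraries. PCSK5, a proprotein convertase, had 0, 0, 70 and 22 reads with a host at 5.41, 12.3, 11.6 and 4.03 FPKM, and METTL5, a methyltransferase of ribosomal RNA, had 0, 60, 0 and 0 with a host between 21.0 and 25.1 FPKM. The third lay in KCTD3, with 0, 20, 34 and 0 reads.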

How the data were processed

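RNA of 3 piglets was pooled into 1 ribosomal RNA-depleted, strand-specific library per stage (D0, D2, D4 and D8). Per the labels and methods, the authors aligned reads to Sscrofa11.1 with HISAT2 2.0.5, and called circRNAs with BWA-MEM and CIRI (CIRI version not given in the sources used here), keeping at least 2 junction reads. The deposited column holds FPKM for genes and SRPBM for circRNAs. SRPBM was divided by the value of 1 junction read of its library, and the results deviated from whole reads by at most 0.00184. The minimum of 2 reads turns a single read into a 0, and reads without molecular identifiers are not independent molecules. Intervals and floors therefore cover counting error only.

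Ratios of 2 libraries were given exact 95% intervals (binomial, conditional on the sum of reads; scipy 1.17.1, Python 3.11.15). A circRNA was called at a ratio of at least 2 with an interval without 1, given 20 or more reads over the 4 libraries. For the ratio a 0 was set to 3 reads, and for the interval it was kept at 0. No ratio was formed when both libraries were at or under 3. Host ratios used log2(FPKM + 0.01), for hosts at 1 FPKM or more in at least 3 libraries. The script that makes the calls was tested on simulated data that hold counting error alone, which says nothing of the spread between libraries. No p-value was computed.

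circRNAs were named by rule: the 12 with most reads, at most 1 per host; the 3 largest rises and falls of each comparison with 50 or more reads, given also for circRNAs above 0 in both libraries, which was added after seeing the data; up to 4 with 50 or more reads from each of 11 gene lists; the 5 hosts with most circRNAs; and those nearest the span limits. The members, the lists and the rule were chosen with earlier results of these data known. Of 24 gene names turned into dates, 23 were given the RefSeq symbol at the same position. Sequences at the junctions were not analysed here, and some items are not reported here.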

Additional observations from a re-analysis of the deposited data

How the results depend on the processing

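The number of circRNAs of middle span called, 455 from D0 to D2, 434 from D2 to D4, 365 from D4 to D8, 504 from D0 to D4 and 434 from D0 to D8, depended mostly on the reads required and on the zeros. With at least 10 reads it was 944, 845, 675, 1041 and 848 in that order, with at least 40 reads 185, 161, 162, 210 and 165, and with no limit 1297, 1207, 998, 1466 and 1226, as more or fewer circRNAs were then tested. Above 0 in both libraries, an alternative added after seeing the data, it was 200, 185, 181, 247 and 187. A ratio of at least 3 left 287 at D4 vs D2 and 235 at D8 vs D4. Scaling by total junction reads, a ratio of 2 without an interval, 0 set to 1 read, reads summed per host, and keeping 4 circRNAs that lie in ZEB1 and in another gene row stayed within 1.5 times, but with 0 set to 1 read 195 were higher and 205 lower from D4 to D8, against 195 and 170. The share of junction reads was 53.5% over the 4 libraries and 50.6% among circRNAs above 0 in all of them; the cause was not tested. A narrower range of spans gave 3668 members and protein-coding hosts alone 4925. No paired analysis was possible because each stage has 1 library, and no replicate could be left out. Annotated exons and junction sequences, planned as further measures, were not analysed here. With a median of 9 reads over the 4 libraries most circRNAs were not compared between stages, and the floor of 3 reads used for a 0 was 17.8 to 25.2 SRPBM, below the exact 95% upper limit of a count of 0, 21.9 to 31.0 SRPBM.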
